A study of Danio rerio with 6 samples.

Results

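The Hox family of transcription factor genes was taken from the table by gene symbol, and 49 of its 25745 genes matched, in 7 clusters (hoxaa, hoxab, hoxba, hoxbb, hoxca, hoxcb and hoxda) and 13 paralog groups. Their levels come from mRNA sequencing of embryonic tails of zebrafish of strain AB at 28 hours after fertilisation, with 3 libraries from wild type (WT) and 3 from sih mutant embryos. In silent heart (sih) embryos the mutation lies in tnnt2a, which encodes a troponin T of heart muscle, and the labels state that the heart of these embryos fails to beat. The labels name no allele and do not say how many embryos were pooled, whether libraries came from separate clutches, or what a replicate number stands for, so p-values measure the spread between these libraries, which may be technical. The sources of the RNA are labelled as cells derived from tails.

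Hox genes encode homeodomain transcription factors that give cells their position along the head-to-tail axis of the body. They lie in clusters, and members with low paralog group numbers are typically active from the hindbrain backwards, while members with high numbers are active in the posterior trunk and tail. Teleost fishes, the group that includes zebrafish, went through an additional genome duplication, so many zebrafish clusters come as a and b copies. Cdx factors and retinoic acid signalling act upstream of Hox genes, Polycomb and Trithorax complexes maintain their off and on states, and Pbx and Meis proteins bind DNA together with Hox proteins.

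Libraries held 21240839 to 27222955 reads assigned to genes. Levels are normalised read counts, in which 1 read counts for 0.826 to 1.43, and they are not corrected for gene length, so they are compared between libraries for the same gene and not between genes. Libraries with the same replicate number deviated together from the means of their genotypes, so the numbers were taken to pair WT with sih libraries. A change is the log2 ratio of sih over WT, computed after adding 1 to each value, and it is given ± SE. Errors and adjusted p-values come from a limma fit that includes the replicate number, called the paired fit, unless stated otherwise. Errors of the limma fits are moderated, which means that the spread of each gene is drawn towards that of genes of like level. The fit without the block gives the same changes with wider errors. Of the 13 defining tail bud genes, 11 were found, and ta and tb were not found under those symbols. The summed level of the 11 ran from 816 to 1307 in WT and from 919 to 1321.8 in sih. The 4 heart genes summed to at most 9.08 normalised counts in any library, and tnnt2a itself reached at most 7.43, so the level of the mutated gene does not check the genotype labels here. The 13 head and hindbrain genes found summed to 771 to 1138 in WT and 779 to 1236.5 in sih. The largest of them was mafba, at 439.8 to 605 over the 6 libraries.

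All 49 Hox genes were detected in every library, with 27 to 3415 reads each. Together they took 0.115%, 0.139% and 0.106% of the reads in WT replicates 1, 2 and 3 and 0.0939%, 0.131% and 0.0827% in sih replicates 1, 2 and 3. The mean was 0.120% ± 0.0173 in WT and 0.102% ± 0.0252 in sih (SD, n = 3), and the ranges of the genotypes overlapped. Within pairs the share differed by -0.0209, -0.00852 and -0.0231 percentage points (sih minus WT, mean -0.0175 ± 0.00786 SD), lower in sih in 3 of 3 pairs, with p = 0.25 in an exact two-sided sign-flip test, the smallest that 3 pairs allow. The exact 95% binomial interval was 0.113% to 0.116% in WT replicate 1 and 0.0815% to 0.0839% in sih replicate 3. In sih replicate 2 it was 0.129% to 0.132%, above that of WT replicate 1. These intervals cover counting error only. On the scale of library totals the median gene was also lower in sih, with a log2 change of -0.18 over all genes tested. The Hox genes had a median of -0.25 on that scale. On the authors' scaling the summed Hox level was 27772 ± 3702 normalised counts in WT and 26746 ± 4905 in sih, lower in sih in pairs 1 and 3 and higher in pair 2. Erythroid genes summed to 32529 to 46697 normalised counts in WT and to 152190 to 205350 in sih, and their part in the share of reads was not tested. In these bulk libraries, fewer cells that express a gene and less RNA per cell cannot be told apart.

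Transcripts of all paralog groups were present, and for each span of groups the shares in WT and sih libraries overlapped. Paralog groups 9 to 11 held 44.2% ± 1.89 of all Hox reads in WT and 44.5% ± 2.37 in sih. Groups 12 and 13, the most posterior, held 14.5% ± 1.12 in WT and 14.01% ± 1.24 in sih. Groups 5 to 8 held 15.1% ± 2.04 in WT and 14.5% ± 2.14 in sih, and groups 1 to 4 held 26.1% ± 2.18 and 27.0% ± 3.37 (SD, n = 3 for each). Within pairs, groups 12 and 13 were lower in sih by all 3 differences, with a mean of -0.538 ± 0.250 percentage points of Hox reads (SD), and groups 5 to 8 likewise, with a mean of -0.589 ± 0.517 and almost no difference in pair 2. Both had p = 0.25 in the exact two-sided sign-flip test, again the smallest possible. Groups 1 to 4 and 9 to 11 were each lower in sih in 1 of 3 pairs (p = 0.75 for both in the same exact test). These comparisons within pairs, 5 in all, were chosen after the values were seen, and none can pass 0.05. Group 3 alone held 18.6% of Hox reads in WT and 19.2% in sih. In the current RefSeq annotation (assembly GRCz12tu, a later build than the authors' Zv9) the spans of the group 3 genes hoxa3a, hoxb3a, hoxc3a and hoxd3a overlap other Hox genes of the same cluster. In all, 18 of the 49 members overlap another member there, among them hoxa5a, hoxb1b, hoxb6b, hoxc6a, hoxc8a and hoxd4a. How the counting used strand and overlaps is not given in the sources used here, so reads of these 18 may have been assigned to a neighbour or left uncounted.

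No Hox gene was called in the fit without the block, which also called none of the 22813 genes tested (percentage called 0; smallest adjusted p = 0.0808, with 235 genes, or 1.03%, at an unadjusted p under 0.05 and none of them a Hox gene). In the paired fit 1 of the 49 Hox genes was called, hoxc6b, which fell. That is 2.04% of the members, against 4.84% of all genes tested, made up of 2.77% higher and 2.07% lower. Among the 12188 genes whose mean level lay within the range of the Hox genes, 6.24% were called. At an unadjusted p under 0.05 the paired fit held 10 Hox genes, which is 20.4% of the members against 18.8% of all genes. Of these 10, 9 were lower in sih, and the split by direction over all genes was not counted at that threshold. For no Hox gene did the 3 WT libraries and the 3 sih libraries fail to overlap, whereas they did so for 4.22% of all genes tested.

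The changes were small and leaned towards lower values in sih. They ran from -0.60 to 0.29, and 48 of 49 lay within 0.5 of 0. 36 members had a change below 0 and 13 above, with a median of -0.07 against -0.0042 over all genes tested. Of all 22813 genes tested, 11519 had a change below 0 and 11294 above. By pair, the median Hox change was -0.07, 0.03 and -0.16 in pairs 1, 2 and 3. Scaling by library totals moved the median of all genes to -0.18 and that of the Hox genes to -0.25, which is -0.07 relative to all genes. Leaving out a single library, without the block, moved the Hox median across 0. It was 0.04 without WT replicate 2 and 0.02 without sih replicate 1. It was -0.20 without WT replicate 1 and -0.23 without sih replicate 2. Such a fit splits a pair, so differences between replicate numbers enter the change. With whole pairs left out in the paired fit the median stayed below 0. It was -0.0343, -0.1253 and -0.052 without replicates 1, 2 and 3. 12 Hox genes, or 24.5%, were lower in sih in all 3 pairs, against 18.2% of all genes, and 7, or 14.3%, were higher in all 3 pairs, against 20.2%.

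**Figure D1:**
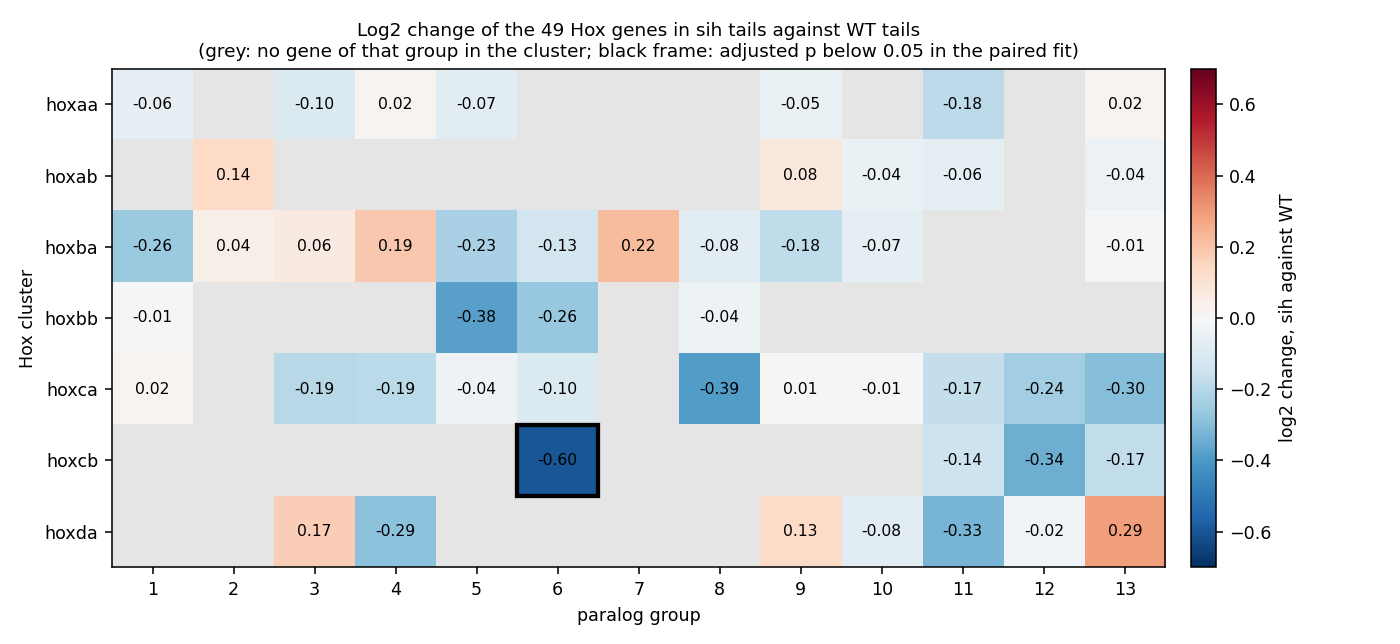
Fitted log2 change of each of the 49 Hox genes in sih against WT tails, with clusters as rows and paralog groups as columns. The framed gene is hoxc6b at -0.60, and the other 48 changes lie within 0.5 of 0.

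Changes below 0 were the majority in every cluster and made up all of hoxcb and hoxbb. Of the 15 members of hoxca and hoxcb, 13 had a change below 0 and 7 were lower in all 3 pairs, with a median change of -0.17. Of the 34 members of the other clusters, 23 were below 0 and 5 were lower in all 3 pairs, with a median of -0.05. The medians were -0.26 for the 4 genes of hoxcb, -0.17 for the 11 of hoxca and -0.15 for the 4 of hoxbb, all 4 of them below 0. They were -0.07, -0.06, -0.04 and -0.02 for hoxba, hoxaa, hoxab and hoxda. In pairs 1, 2 and 3 the median was -0.26, -0.05 and -0.46 for hoxcb. It was -0.17, -0.0043 and -0.25 for hoxca and -0.20, 0.02 and -0.29 for hoxbb. Clusters were compared after the values were seen, as a description without a test, since genes of a cluster are not replicates.

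**Figure D2:**
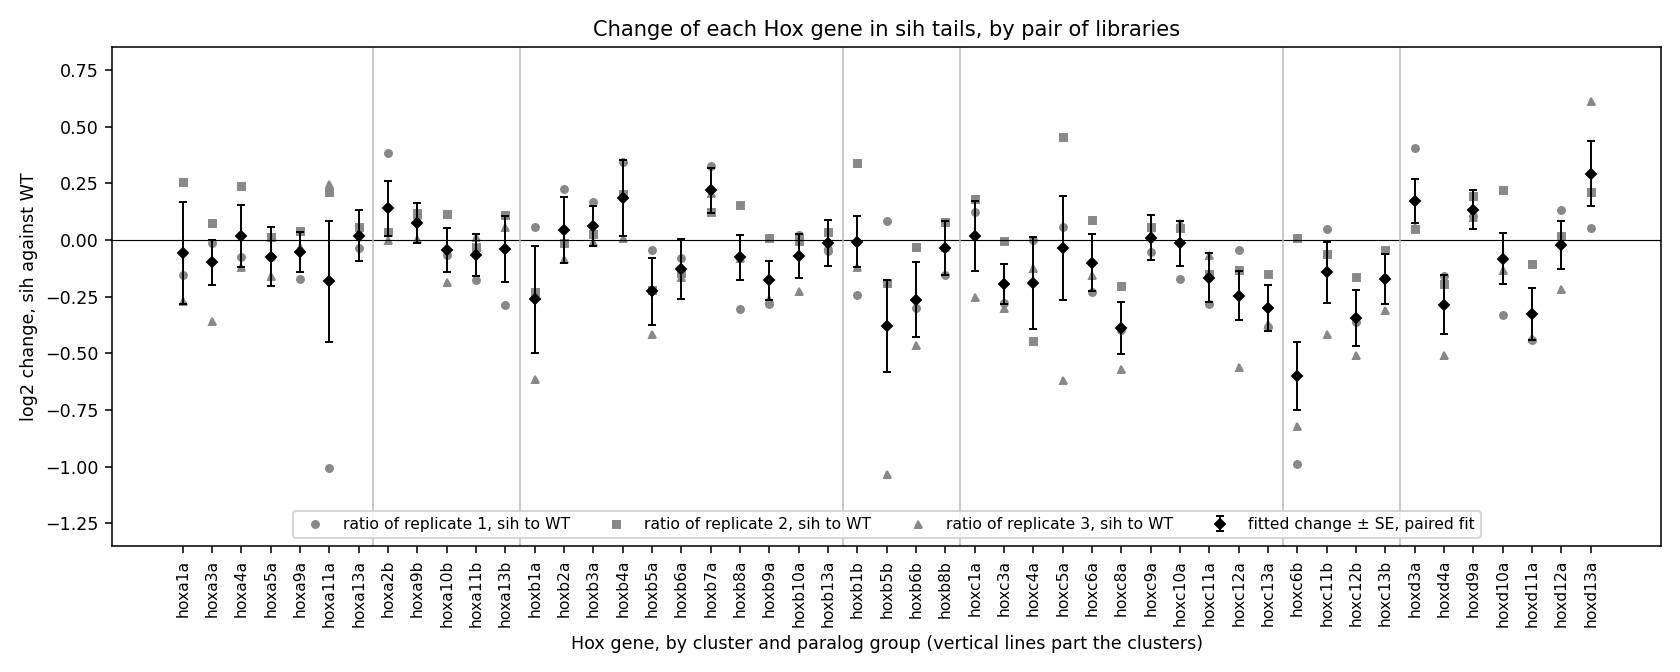
Log2 change of each Hox gene, by cluster and paralog group. Black diamonds with bars are the fitted change ± SE of the paired fit, and grey symbols are the ratios within replicates 1, 2 and 3. hoxc6b falls in pairs 1 and 3 and stands at 0.01 in pair 2.

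Paralog groups 1 to 4 include the patterning genes of the hindbrain and pharyngeal arches. Their 14 members split evenly, 7 below 0 and 7 above, with a median change of 0.0048. Leaving out 1 library, without the block, moved that median between -0.1161, without sih replicate 2, and 0.0752, without WT replicate 3. With whole pairs left out in the paired fit it was -0.0205, -0.0793 and 0.0677 without replicates 1, 2 and 3. hoxb1b, which patterns hindbrain segments, was at 631, 665 and 795 normalised counts in WT replicates 1, 2 and 3 and at 533, 843 and 732 in sih replicates 1, 2 and 3 (-0.01 ± 0.11, adjusted p = 0.985). hoxc1a was at 84.4, 150.3 and 237 normalised counts in WT replicates 1, 2 and 3 and at 91.9, 170.4 and 199 in sih replicates 1, 2 and 3 (0.02 ± 0.16, adjusted p = 0.97). The genotypes overlapped for both genes, and for hoxc1a replicate 1 was low in both.

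hoxa2b, known for the identity of the second pharyngeal arch, was at 253, 369.9 and 289 normalised counts in WT replicates 1, 2 and 3 and at 330.1, 379 and 289 in sih replicates 1, 2 and 3 (0.14 ± 0.12, adjusted p = 0.593). hoxc3a, the group 3 gene with the most reads, was at 1469, 2173 and 2089 normalised counts in WT replicates 1, 2 and 3 and at 1212, 2167 and 1699 in sih replicates 1, 2 and 3 (-0.19 ± 0.09, adjusted p = 0.237). The genotypes overlapped in both genes. hoxd4a was at 233, 339 and 251 normalised counts in WT replicates 1, 2 and 3 and at 209, 295 and 176 in sih replicates 1, 2 and 3. It was lower in sih in every pair, where the log2 ratio was -0.16, -0.20 and -0.51, and did not pass (-0.29 ± 0.13, adjusted p = 0.241).

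Groups 5 to 8 act in the trunk, and 11 of their 12 members had a change below 0, with a median of -0.11. With 1 library left out and no block, the median was above 0 without sih replicate 1 (0.0881) or WT replicate 3 (0.0219). It was further below 0 without WT replicate 1 (-0.381), sih replicate 2 (-0.3077) or sih replicate 3 (-0.2551). With whole pairs left out in the paired fit it was -0.1176, -0.2106 and -0.073 without replicates 1, 2 and 3. Within pair 2 the median was 0.0117. hoxa5a was at 184, 296 and 209 normalised counts in WT replicates 1, 2 and 3 and at 175, 299 and 188 in sih replicates 1, 2 and 3 (-0.07 ± 0.13, adjusted p = 0.817). hoxb6b was at 79.8, 149 and 184 normalised counts in WT replicates 1, 2 and 3 and at 64.7, 145 and 133 in sih replicates 1, 2 and 3 (-0.26 ± 0.17, adjusted p = 0.422). The genotypes overlapped in both, and replicate 1 was the lowest in each.

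hoxc6b (ENSDARG00000046045), the b copy of the group 6 gene of HoxC, was the called member. It was at 307, 637 and 494 normalised counts in WT replicates 1, 2 and 3 and at 154, 641 and 279 in sih replicates 1, 2 and 3. The sih libraries of replicates 1 and 3 were the lowest of all 6, while sih replicate 2 was the highest. The mean was 479 ± 165 in WT and 358 ± 253 in sih (SD, n = 3), and within pairs 1, 2 and 3 the log2 ratio was -0.99, 0.01 and -0.82. The paired change was -0.60 ± 0.15, adjusted p = 0.0257. That error is moderated, and the 3 ratios of hoxc6b lie further apart than it implies, so the call does not rest on agreement between the pairs. The call was lost without replicate 3 (change -0.4894, adjusted p = 0.0574) and without the block (adjusted p = 1). It held without replicate 1 (adjusted p = 0.0366) and without replicate 2, where the change was -0.905 (adjusted p = 8.81e-06), as well as with edgeR and DESeq2 with the block (adjusted p = 0.000517 and 0.0323). With single libraries left out and no block, the change was -0.1167 without sih replicate 1, -0.3645 without WT replicate 2 and -1.1405 without sih replicate 2. Its a copy in the hoxca cluster, hoxc6a, was at 278 ± 58.6 in WT and 263 ± 73.2 in sih (-0.10 ± 0.13, adjusted p = 0.73). The difference between the copies was not tested. In current RefSeq hoxc6a overlaps hoxc3a while hoxc6b overlaps no Hox gene, so the limit on read assignment applies to hoxc6a.

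hoxc8a (ENSDARG00000070346), a trunk gene of the hoxca cluster, was at 403, 513 and 429 normalised counts in WT replicates 1, 2 and 3 and at 306, 446 and 289 in sih replicates 1, 2 and 3. It was lower in sih in every pair, by log2 ratios of -0.40, -0.20 and -0.57, though the genotypes overlapped. Its change was -0.39 ± 0.11, adjusted p = 0.0571, just short of the threshold of 0.05. It passed with edgeR and the block (adjusted p = 0.0304) and without replicate 2 (adjusted p = 0.0378). It did not pass with DESeq2 and the block (adjusted p = 0.110) or without replicate 3 (adjusted p = 0.376). In current RefSeq hoxc8a overlaps hoxc3a, so the limit on read assignment given above applies to it.

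hoxb7a, the only member of group 7, was at 456, 759 and 638 normalised counts in WT replicates 1, 2 and 3 and at 572, 826 and 738 in sih replicates 1, 2 and 3. It was higher in sih in every pair and did not pass (0.22 ± 0.10, adjusted p = 0.233). The group 8 gene hoxb8a was at 935, 1073 and 1341 normalised counts in WT replicates 1, 2 and 3 and at 758, 1193 and 1268 in sih replicates 1, 2 and 3 (-0.08 ± 0.10, adjusted p = 0.731). hoxb8b was at 181, 352 and 457 normalised counts in WT replicates 1, 2 and 3 and at 162, 371 and 447 in sih replicates 1, 2 and 3 (-0.04 ± 0.12, adjusted p = 0.914). For hoxb8b the libraries of replicate 1 lay far below those of replicates 2 and 3 in either genotype, and the genotypes hardly differed within a replicate.

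**Figure D3:**
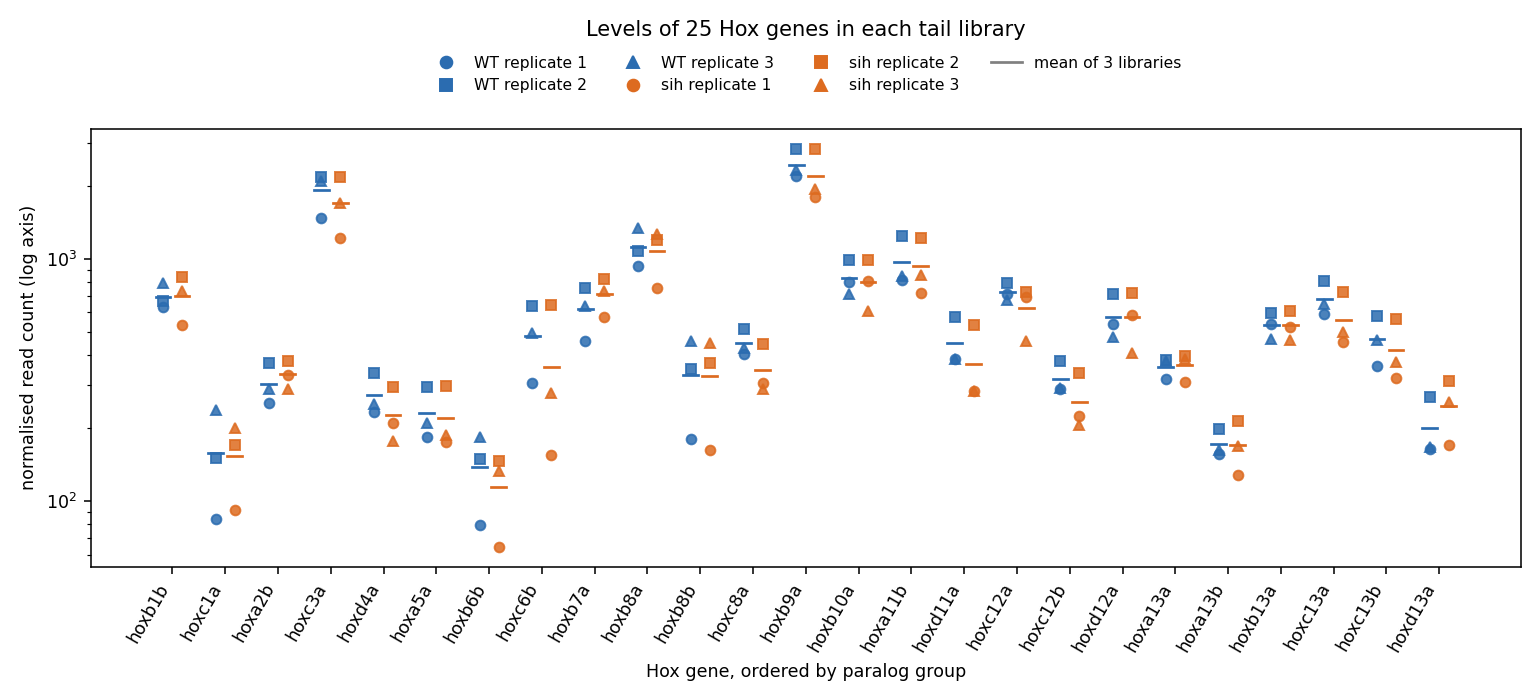
Normalised read counts (log axis) of 25 Hox genes in the 6 tail libraries, ordered by paralog group. Blue symbols are WT, orange symbols are sih, shapes mark the replicate number and short lines the mean of 3 libraries. The genotypes overlap in every gene, and replicate numbers stand apart in genes such as hoxb8b and hoxc6b.

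Groups 9 to 13 belong to the posterior class, related to Abdominal-B of flies, and are typical of the tail. hoxb9a, the Hox gene with the most reads, was at 2183, 2819.6 and 2329 normalised counts in WT replicates 1, 2 and 3 and at 1795, 2835 and 1945 in sih replicates 1, 2 and 3 (-0.18 ± 0.08, adjusted p = 0.265). hoxb10a was at 799, 991 and 714 normalised counts in WT replicates 1, 2 and 3 and at 811, 987 and 610.3 in sih replicates 1, 2 and 3 (-0.07 ± 0.10, adjusted p = 0.758). Neither separated the genotypes, and for both the libraries of replicate 2 were the highest of each genotype.

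hoxa11b was at 817, 1239 and 846 normalised counts in WT replicates 1, 2 and 3 and at 723, 1214 and 854 in sih replicates 1, 2 and 3 (-0.06 ± 0.09, adjusted p = 0.766). hoxd11a (ENSDARG00000059267) was at 385, 571 and 385 normalised counts in WT replicates 1, 2 and 3 and at 284, 531 and 285 in sih replicates 1, 2 and 3. The latter was lower in sih in every pair (-0.44, -0.11 and -0.43) and did not pass (-0.33 ± 0.12, adjusted p = 0.115). All 5 members of group 11 had a change below 0, with a median of -0.17, and so had all 4 of group 10, with a median of -0.06. The group 11 median was -0.28, -0.06 and -0.06 in pairs 1, 2 and 3. In that group only hoxc11a and hoxd11a were lower in sih in every pair, and hoxa11a was lower in pair 1 alone. The group 10 changes ran only from -0.08 to -0.01, and their median in pair 2 was 0.09. Group 9 did not share this lean, with 3 of its 5 members above 0 and a median of 0.01.

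The 3 genes of group 12 sit next to group 13 at the posterior end of their clusters. hoxc12a was at 717, 796 and 676 normalised counts in WT replicates 1, 2 and 3 and at 697, 726 and 458 in sih replicates 1, 2 and 3 (-0.24 ± 0.11, adjusted p = 0.232). hoxc12b (ENSDARG00000046043) was at 289, 378 and 292 normalised counts in WT replicates 1, 2 and 3 and at 225, 338 and 205 in sih replicates 1, 2 and 3 (-0.34 ± 0.12, adjusted p = 0.125). Both HoxC copies were lower in sih in every pair, and neither passed. hoxd12a was at 535, 713 and 475 normalised counts in WT replicates 1, 2 and 3 and at 587, 723 and 408 in sih replicates 1, 2 and 3, and did not pass either (-0.02 ± 0.11, adjusted p = 0.944).

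Group 13 genes mark the caudal end of the axis, and members of the group also pattern fins and the hindgut. hoxc13a (ENSDARG00000070353) was at 589, 807 and 647 normalised counts in WT replicates 1, 2 and 3 and at 452, 728 and 500.0 in sih replicates 1, 2 and 3. It was lower in sih in every pair (-0.38, -0.15 and -0.37), with overlapping groups and an adjusted p of 0.099. Its b copy hoxc13b was at 359, 579 and 461 normalised counts in WT replicates 1, 2 and 3 and at 319.9, 561 and 372 in sih replicates 1, 2 and 3 (-0.17 ± 0.11, adjusted p = 0.428).

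hoxd13a (ENSDARG00000059256) had the largest positive change of all Hox genes. It was at 164, 269 and 166 normalised counts in WT replicates 1, 2 and 3 and at 170.2, 312 and 255 in sih replicates 1, 2 and 3, and its log2 ratio was 0.05, 0.21 and 0.62 within pairs 1, 2 and 3. Most of the difference lay in pair 3, and it did not pass (0.29 ± 0.14, adjusted p = 0.272).

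The remaining 3 genes of group 13 had changes within 0.04 of 0 in the paired fit. hoxa13a was at 317, 381 and 376 normalised counts in WT replicates 1, 2 and 3 and at 309.7, 396 and 387 in sih replicates 1, 2 and 3 (0.02 ± 0.11, adjusted p = 0.953). hoxa13b was at 157, 198 and 162 normalised counts in WT replicates 1, 2 and 3 and at 128, 214 and 169 in sih replicates 1, 2 and 3 (-0.04 ± 0.15, adjusted p = 0.925). hoxb13a was at 537, 596 and 468 normalised counts in WT replicates 1, 2 and 3 and at 519.6, 610.4 and 461 in sih replicates 1, 2 and 3 (-0.01 ± 0.10, adjusted p = 0.971), and its genotypes differed by no more than 0.05 on the log2 scale in any pair.

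The 24 Hox genes not named so far with all their values had WT means of 50.9 to 1405.7 normalised counts and changes from -0.38 to 0.19. Their smallest adjusted p was 0.338. With a median paired SE of 0.11 over the 49 genes, a change that misses the threshold is not thereby shown to be absent.

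Hox levels also differed between replicate numbers. An F test of the replicate number in the paired fit, chosen after the values were seen, called 38 of the 49 Hox genes (77.6%). It called 59.1% of all genes tested and 76.6% of the 12188 genes of like mean level, so the share of Hox genes is near that background. It called 6 of the 14 members of groups 1 to 4 and 11 of the 12 of groups 5 to 8. In groups 9 to 11 it called 13 of 14, and in groups 12 and 13 it called 8 of 9. Groups 1 to 4 were mixed, with 3 of 4 called in group 1, 0 of 2 in group 2, 2 of 4 in group 3 and 1 of 4 in group 4.

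Most members shared a direction. In replicate 1, averaged over genotypes, 42 of 49 Hox genes were lower than in replicates 2 and 3, by a median log2 difference of -0.38 against 0.04 over all genes tested. The medians were -0.63 for groups 5 to 8, with all 12 members lower, -0.34 for groups 9 to 11, -0.30 for groups 12 and 13, and -0.24 for groups 1 to 4. Groups 1 to 4 were not alike. Group 1 had a median of -0.73, with all 4 members lower. Group 3 went the other way, with a median of 0.20 and 3 of 4 members above 0. Between replicates 3 and 2 the medians were -0.42 for groups 9 to 11 and -0.45 for groups 12 and 13, with 13 of 14 and 9 of 9 members lower in replicate 3. They were -0.11 for groups 1 to 4 and -0.03 for groups 5 to 8, against -0.02 over all genes.

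**Figure D4:**
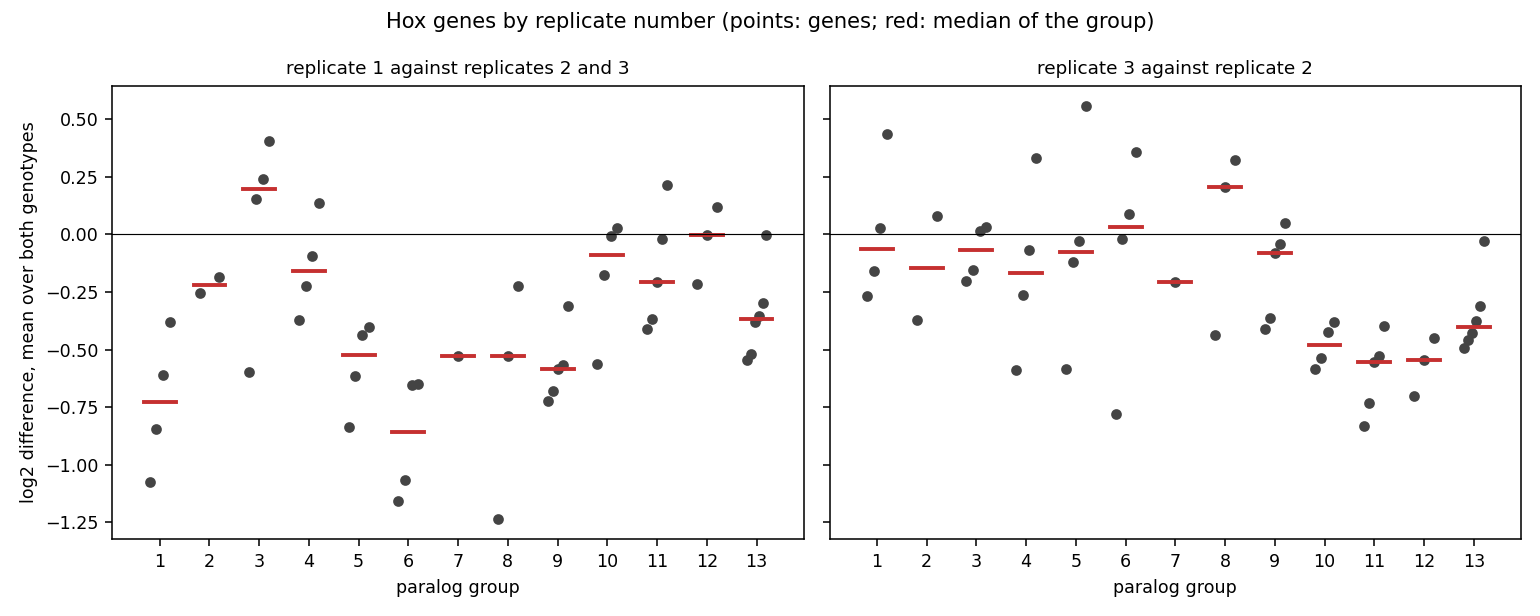
Log2 difference of each Hox gene between replicate numbers, averaged over WT and sih, by paralog group. Points are genes and red lines the median of the group. On the left, all genes of groups 1, 2, 5 to 9 and 13 lie below 0 in replicate 1. On the right, groups 10 to 13 lie below 0 in replicate 3 against replicate 2.

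The largest ratios between replicate numbers, over the mean of both genotypes, were those of hoxc6b, hoxb8b, hoxc1a and hoxb6b. hoxc6b averaged 231, 639 and 387 normalised counts in replicates 1, 2 and 3, a 2.77-fold range. hoxb8b averaged 171, 362 and 452, a 2.64-fold range. hoxc1a averaged 88.1, 160.4 and 218 and hoxb6b 72.2, 147 and 159. In all 4 genes replicate 1 was the lowest. Marker sums moved with the replicate number too, though not all in the same way. The 11 tail bud genes summed to 816 in WT replicate 1 against 1307 and 1133 in WT replicates 2 and 3, and to 919 against 1321.8 and 1279 in sih. The 13 head and hindbrain genes summed to 1138 against 817 and 771 in WT and to 1236.5 against 836 and 779 in sih. For the 8 spinal cord neuron genes, replicate 1 lay between replicates 2 and 3. They summed to 5061 against 4569 and 5488 in WT and to 5597 against 4538 and 5689 in sih. A further list of 3 fin genes, tbx5a, and1 and fgf24, summed to 16594 against 6284 and 8676 in WT. In sih they summed to 16119 against 6119 and 8769. The sums do not show which tissue or which of the 3 genes these reads come from, and the tissue was not tested. The part of these marker genes in the Hox differences was not tested either.

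The related lists held Cdx and tail bud genes, Pbx, Meis and Pknox cofactors, the retinoic acid pathway, and Polycomb and Trithorax genes. Whether each of these genes acts on Hox genes was not tested. Of the 106 tested rows, 6 were called in the paired fit, or 5.66%, near the 4.84% of all genes tested. Without the block, limma and edgeR called none of them and DESeq2 called 1, tbx6l (adjusted p = 0.02305). Of the 24 tested genes of the retinoic acid pathway, dhrs3b and dhrs3a rose and crabp2a fell. That is 12.5% of the list against 4.84% of all genes tested, and 6.24% of those at the mean levels of Hox genes, with a median change of 0.07 over the list. crabp2a (ENSDARG00000040923), a cellular binding protein for retinoic acid, was at 811, 1437 and 586 normalised counts in WT replicates 1, 2 and 3 and at 463, 936 and 411 in sih replicates 1, 2 and 3 (-0.65 ± 0.10, adjusted p = 0.000777). dhrs3b (ENSDARG00000044803), a reductase of retinaldehyde, was at 619.8, 869 and 1018 normalised counts in WT replicates 1, 2 and 3 and at 989, 1349.6 and 1329 in sih replicates 1, 2 and 3 (0.56 ± 0.09, adjusted p = 0.00162).

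dhrs3a (ENSDARG00000044982), its paralog, was at 144, 334 and 453 normalised counts in WT replicates 1, 2 and 3 and at 192, 501 and 599 in sih replicates 1, 2 and 3 (0.46 ± 0.12, adjusted p = 0.0258). Each of the 3 genes moved the same way in every pair. In the paired fit, crabp2a and dhrs3b kept their calls whichever replicate was left out. dhrs3a lost its call without replicate 2 (adjusted p = 0.125) or without replicate 3 (adjusted p = 0.0902).

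Of the 30 tested Cdx and tail bud genes, 1 rose, tbx6l (ENSDARG00000006939), a T-box transcription factor, and the median change of the list was 0.07. That is 3.33% of the list, against 2.77% of all genes called higher. tbx6l was at 40.3, 28.9 and 28.5 normalised counts in WT replicates 1, 2 and 3 and at 209, 91.7 and 87.4 in sih replicates 1, 2 and 3 (1.85 ± 0.22, adjusted p = 3.67e-05). Every sih library lay above every WT library. The genes next to group 13 at the ends of 3 clusters in current RefSeq, evx1 beside hoxa13a, evx2 beside hoxd13a and eve1 beside hoxb13a, encode even-skipped homeodomain factors. None of them was called, with changes of 0.06 ± 0.14 for evx1, -0.19 ± 0.23 for evx2 and 0.22 ± 0.16 for eve1.

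Of the 13 tested Pbx, Meis and Pknox cofactors none was called, with a median change of 0.05. The smallest p belonged to meis4.1a (0.24 ± 0.08, adjusted p = 0.0861) and pbx1a (0.52 ± 0.21, adjusted p = 0.178). meis4.1a was at 1875, 2043 and 2606 normalised counts in WT replicates 1, 2 and 3 and at 2304, 2353 and 3063 in sih replicates 1, 2 and 3. pbx1a was at 67.9, 46.2 and 92.4 normalised counts in WT replicates 1, 2 and 3 and at 90.8, 97.3 and 97.4 in sih replicates 1, 2 and 3. Of the 39 tested rows of Polycomb and Trithorax genes (38 symbols), 2 fell, and the median change was -0.03. These are 5.13% of the list, near the 4.84% of all genes called and above the 2.07% called lower. kdm6bb (ENSDARG00000056929), a demethylase that removes the Polycomb mark from histone H3, was at 912, 921 and 444 normalised counts in WT replicates 1, 2 and 3 and at 505, 777 and 285 in sih replicates 1, 2 and 3 (-0.58 ± 0.11, adjusted p = 0.0064). psip1 (ENSDARG00000018745), a chromatin reader that tethers Trithorax-type complexes, was at 83.4, 221 and 85.5 normalised counts in WT replicates 1, 2 and 3 and at 34.0, 172 and 27.2 in sih replicates 1, 2 and 3 (-1.08 ± 0.22, adjusted p = 0.00839). DESeq2 with the block gave no adjusted p for psip1 or tbx6l. Both psip1 and kdm6bb fell in every pair, with replicate 2 of psip1 well above the other replicates in both genotypes.

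**Figure D5:**
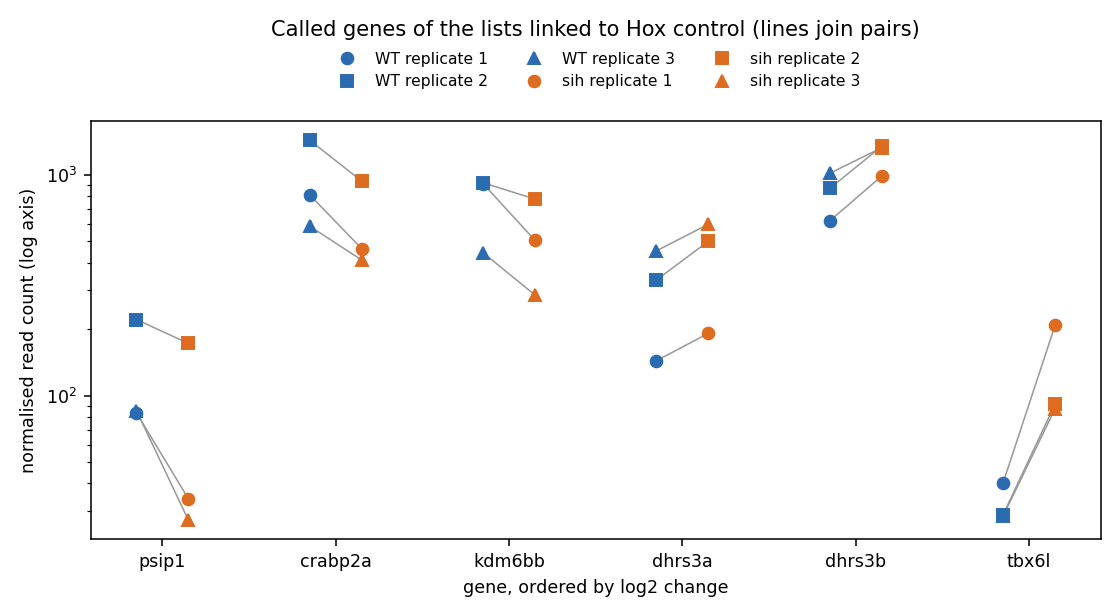
Normalised read counts (log axis) of the 6 called genes of the related lists, with lines joining WT and sih libraries of the same replicate number. psip1, crabp2a and kdm6bb fall in every pair, and dhrs3a, dhrs3b and tbx6l rise in every pair.

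Blood cell markers changed in the same libraries, with all 9 erythroid rows higher and all 3 neutrophil genes lower in the paired fit. Their median changes were 2.27 and -1.89. The 9 erythroid rows stand for 7 symbols, with the sums given above, and the 3 neutrophil genes summed to 863 to 1251 in WT and 239 to 441 in sih. The part of blood cells in the Hox differences was not tested. The 8 rows of mir10 and mir196 genes, microRNAs within Hox clusters, had at most 9 reads in any library of this poly(A)-selected RNA.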

How the data were processed

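Poly(A)-selected RNA of 6 tail libraries was sequenced, and the labels describe no step that marks the strand. Per the submitters' processing notes, TopHat, HTSeq 0.5.3p5 and edgeR 3.0.8 were used with genome build Zv9. The deposited signal values are normalised counts made by the authors. All (100%) were whole multiples of the worth of 1 read in their library (tolerance 1e-06), and the scaling equals edgeR's TMM factors, so reads were recovered. 37 rows with no gene name were not candidates for the family.

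From these values limma 3.58.1 was fitted with a trend to log2(value + 1) for 22813 genes (mean of 1 or more in WT or in sih), with Benjamini-Hochberg adjustment over all of them and a threshold of 0.05. The design without the block was the main one. A second fit, with replicate number as a blocking factor, is given beside it, because same-numbered libraries deviated together from their group means (Pearson correlation across 13248 genes with a mean of at least 50 of 0.932, 0.884 and 0.852, and 0.71, 0.70 and 0.75 across the 49 Hox genes). The pairing therefore rests on the data, and no label explains the numbers. The design was planned for normalised values, and counts were tested as alternatives with edgeR 4.0.16 and DESeq2 1.42.0. The limma fits with and without the block were tried on counts simulated with known changes and replicate levels shared by both genotypes. Other steps were not tried in this way.

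Values in every library are given for all members of groups 12 and 13, called members, the 6 with the smallest p in the paired fit, the member with the most reads in each group and the 4 with the largest ratio between replicate numbers. For related lists they are given for called genes and otherwise the 2 with the smallest p. Members and lists were chosen with earlier results of these data known. Gene order and overlaps come from RefSeq (GRCz12tu), in which all 49 members were found, and no sequences were used.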

Additional observations from a re-analysis of the deposited data

How the results depend on the processing

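Hox genes called lower numbered 0 without the replicate block, 1 with it, 2 with edgeR and the block and 1 with DESeq2 and the block. Leaving out libraries or pairs gave 0 to 2, with 1 without pair 1 and 2 without pair 2. No setting called a Hox gene higher. Without the block, edgeR on the recovered reads called no gene. Over all genes, the replicate block called 632 higher and 473 lower, edgeR with it 1004 and 795, DESeq2 46 and 2, and DESeq2 with it 639 and 308. Leaving out pair 1, 2 or 3 under the block gave 744, 721 and 256 higher and 504, 761 and 250 lower. Without the block, leaving out any single library called no gene. Called genes of the related lists numbered 6 with the block, 9 with edgeR and the block, 1 with DESeq2, 4 with DESeq2 and the block, and 8, 5 and 6 without pair 1, 2 or 3. DESeq2 with the block gave psip1 and tbx6l no adjusted p, so they are not counted as lost.

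Scaling by library totals gave median log2 changes of -0.2532 for all Hox genes, -0.1788 for groups 1 to 4, -0.2973 for groups 5 to 8, -0.2508 for groups 9 to 11 and -0.2227 for groups 12 and 13, with the median of all genes at -0.1783. It put 46 Hox genes below 0 and 3 above, against 36 and 13. With single libraries left out and no block, medians ran from -0.232 to 0.0396 for all Hox genes. They ran from -0.1161 to 0.0752 for groups 1 to 4 and -0.381 to 0.0881 for groups 5 to 8. They ran from -0.2816 to 0.0657 for groups 9 to 11 and -0.2184 to 0.0644 for groups 12 and 13. With pairs left out under the block, medians ran from -0.1253 to -0.0343 for all Hox genes. They ran from -0.0793 to 0.0677 for groups 1 to 4 and -0.2106 to -0.073 for groups 5 to 8. They ran from -0.1135 to -0.0014 for groups 9 to 11 and -0.1145 to -0.0869 for groups 12 and 13. Without the 18 overlapping members, a setting chosen after the data were seen, the Hox median was -0.0553. Without hoxb9a, groups 1 to 4 held 28.65% of Hox reads in WT, groups 9 to 11 38.8% in WT and 39.57% in sih, and groups 12 and 13 15.96% and 15.25%. Levels per kilobase were not run, since no lengths were used here. 16 members kept the sign of their change under every setting run.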
